A study of Homo sapiens with 12 samples.

Results

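The hnRNPs and alternative splicing regulators are 47 genes for RNA-binding proteins that decide, with the SR proteins, which exons enter a messenger RNA. They were found on the arrays through the RefSeq accession of each probe, matched by symbol in a RefSeq gene table, and all 47 had a probe, 103 of 41000 gene probes and 47 of 16557 named genes. Expression was measured on 12 one-colour Agilent Whole Human Genome arrays hybridised with cyanine3-labelled cRNA of H358, a human lung adenocarcinoma cell line. All 12 arrays come from H358/Tet-On/SRSF2, a single clone in which a Tet-responsive promoter drives the SR protein gene *SRSF2*. The labels call 6 arrays control and the other 6 SRSF2 over-expression, with 1 µg/mL doxycycline given for 24 hours as inducer. For the controls the labels name no treatment, but their source names also carry an induction of 24 hours. The sources used here do not settle if doxycycline was given to the controls. In a single inducible clone the drug and the transgene go together, so an effect of the drug and an effect of the transgene cannot be told apart. Each of 3 slides carried 2 arrays of both conditions. The 6 arrays of a condition come from 3 labelings, each hybridised to 2 arrays, so they are fewer than 6 independent samples. The p-values over arrays thus measure a spread that is at least in part technical. Which arrays share a labeling is not given by the labels. The sources used here do not say if the labelings come from separate cultures.

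Every level given here is the log2 of the processed signal less the 75th percentile on that array, and every change is the mean of the arrays labelled SRSF2 over-expression minus the mean of the control arrays on that log2 scale. The targeted gene went against its label. The *SRSF2* probe A_23_P77776 read 3.74 to 4.03 on the control arrays and 2.29 to 2.56 on the labelled ones, a change of -1.46 (SE 0.06, limma adjusted p = 1.68e-09). All labelled arrays lay under all control arrays. What the probe reads of the transgene is not given in the sources used here, so the name "labelled SRSF2 over-expression" is kept throughout, and each direction below is that of the labels. Of the epithelial markers, the probes of *EPCAM*, *CDH1*, *KRT7*, *KRT8*, *KRT18* and *KRT19* were well above background on all 12 arrays, whereas *PTPRC* of leukocytes and *DCN* of fibroblasts were above background on 0 arrays. Of the 7 probes for other cell types, *PECAM1* of endothelium was above background on all 12 arrays and changed by -0.46. *VWF* A_23_P105562 was above it on 4 control and 5 labelled arrays and changed by 0.31, and *CD3E* A_24_P86968 on 5 of each, with a change of -0.03. Summed over the 7 probes on the linear scale, the signal was 0.375 to 0.426 of the 75th percentile on control arrays and 0.352 to 0.427 on the labelled arrays.

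The heterogeneous nuclear ribonucleoproteins (hnRNPs) coat nascent transcripts and often act against the SR proteins: where an SR protein bound to an exonic enhancer favours inclusion of an exon, an hnRNP bound to a silencer can favour skipping. The other members are tissue and general regulators of the same choice, among them the muscleblind, PTB, KH-domain, TIA and RBM proteins and the large scaffold proteins of nuclear speckles. Many of these genes carry alternative exons or alternative 3' ends in their own transcripts, some of which lead to decay of the message, so that probes of the same gene can read different transcripts. The question the comparison answers is how these regulators moved between the control arrays and the arrays labelled SRSF2 over-expression.

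More members were higher than lower on the labelled arrays. A probe counted as expressed when it was well above background on at least 5 of 6 arrays of a condition, and 100 of the 103 probes did, at least 1 for each of the 47 genes. The remaining 3, *MBNL2* A_23_P204979 and *QKI* A_23_P81760 and A_24_P940426, were not tested. With the threshold at a limma adjusted p of 0.05, 68 of the 100 probes changed, 49 up and 19 down. The background is high, for 57.7% of all 24327 probes tested passed the same threshold, 29.7% up and 28.0% down. Rises were thus the larger share among the members (49 of 100 against 29.7%), and falls the smaller (19 of 100 against 28.0%). The shares of 29.7% and 28.0% are also the background for the counts of each family below. Of the members' probes, 68 had a change above 0, against 51.0% of all probes. Their median change was 0.23, with the middle of the distribution between -0.08 and 0.53, beside a median of 0.01 over all probes. When same-condition arrays on a slide were averaged and counted as 1 sample, 45 of the 100 probes passed, 33 up and 12 down, beside 39.0% of all probes. With the slide added to that fit as a block, 66 passed, 49 up and 17 down, beside 54.8% of all probes. Such a mean stands for a single labeling only if its arrays share one, which the labels do not say.

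**Figure D1:**
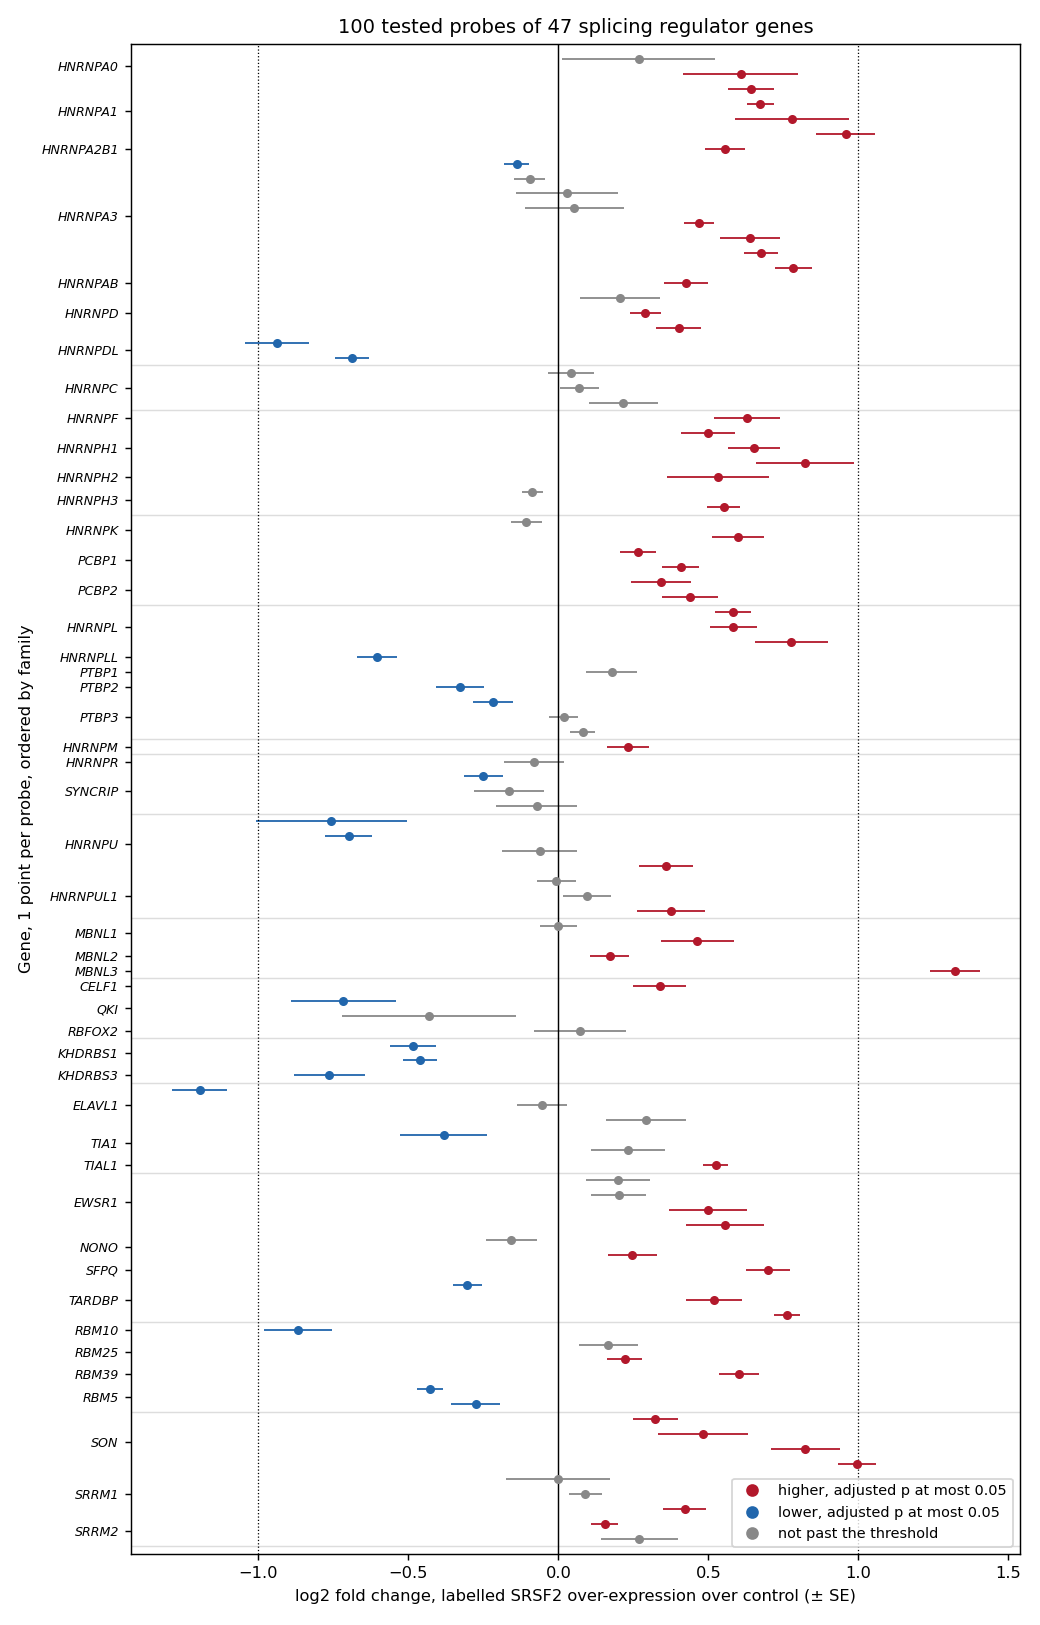
Change of each of the 100 tested probes of the 47 genes, as log2 fold change of the labelled SRSF2 over-expression arrays over control (horizontal axis, bars ± SE, 12 arrays), with genes ordered by family on the vertical axis and dotted lines at a 2-fold change. The 49 probes that rose are red, the 19 that fell are blue, and only *MBNL3* (1.32) and *ELAVL1* A_32_P200165 (-1.20) lie beyond 2-fold.

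Few changes were large. With a 2-fold change required as well, 2 probes of the members passed, 1 up and 1 down, against 7.00% of all probes, 3.68% up and 3.31% down. The median size of a change without regard to sign was nevertheless larger among the members, 0.39 against 0.30 over all probes. The 2 conditions did not overlap on 48 of the 100 probes, beside 40.2% of all probes. Counted by gene, 28 of the 47 had only rising called probes, 12 only falling ones, 3 had both and 4 had none (*HNRNPC*, *HNRNPR*, *PTBP1* and *RBFOX2*), whereas among 11591 named genes the shares were 33.1%, 30.6%, 3.09% and 33.1%. *QKI* is among the 12 only through A_24_P384954, above background on 5 control and 3 labelled arrays. That probe entered the fit through the condition where it is higher. The members had more tested probes per gene than the array as a whole (2.13 against 1.41), which gives more chances of a call. By the median of each gene's probes, 34 of the 47 genes (72.3%) lay above 0, against 51.2% of all named genes. The members were also well detected, with 96 of 100 probes above background on all 12 arrays (85.1% of all probes). Among probes detected on all 12 arrays, 65 of the members' 96 were called (67.7%), beside 58.8% of all. On all 3 slides, 82 of the 100 probes had the same sign, against 74.0% of all probes.

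**Figure D2:**
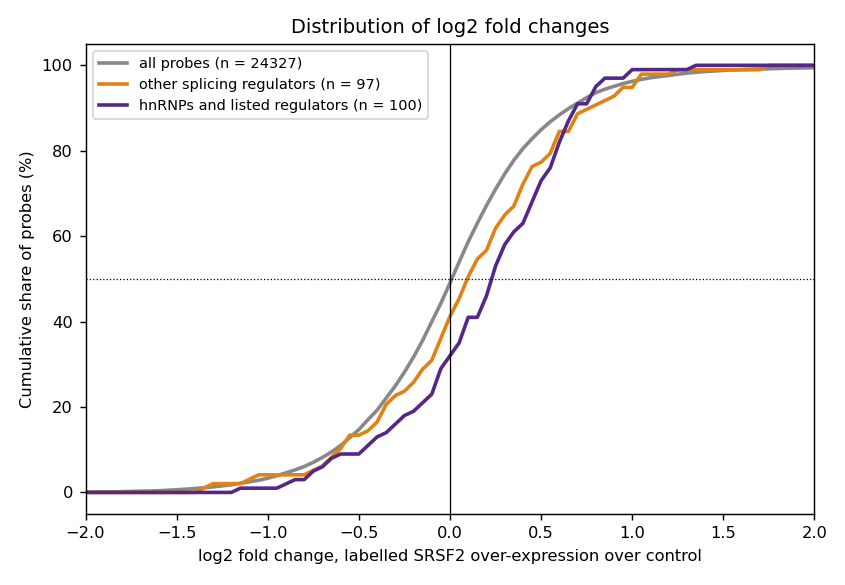
Cumulative share of probes (vertical axis, percent) with a log2 fold change up to the value on the horizontal axis, for the 100 probes of the hnRNPs and listed regulators, 97 probes of other splicing regulators and all 24327 probes tested. The members' curve lies to the right of the curve of all probes over most of the range, and crosses the dotted line at its median of 0.23, against 0.10 for the other splicing regulators and 0.01 for all probes.

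The hnRNP A/B/D group holds the most abundant hnRNPs, which bind UAG-containing and AU-rich motifs, and several of which silence exons. Of its 21 probes, 13 rose, 3 fell and 5 did not pass, with a median of 0.43 that stayed above 0 under every scaling tried. *HNRNPA1*, the prototype antagonist of SR proteins in exon choice, rose on all 4 of its probes. The probe A_32_P189803 ranged from 2.93 to 3.23 on control arrays (mean 3.07) and from 3.82 to 4.35 on the labelled arrays (mean 4.03), a change of 0.96 (SE 0.10, limma adjusted p = 3.58e-06). The A_24_P454313 probe went from 5.41 to 5.50 (median 5.46) to 6.01 to 6.20 (median 6.16), a change of 0.67 (SE 0.05, limma adjusted p = 8.54e-08). No labelled array overlapped a control array on any of the 4 probes, and the other two changed by 0.78 and 0.64. The change of 0.78, on A_24_P517901, missed the threshold with 1 value per slide (adjusted p = 0.0521) and passed with the slide as a block on those values (adjusted p = 0.00101).

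*HNRNPA2B1*, a close relative of *HNRNPA1*, read 2.52 to 2.63 on control arrays and 2.99 to 3.35 on the labelled arrays, a change of 0.56 (SE 0.07, limma adjusted p = 1.41e-05) with no overlap. *HNRNPAB* changed by 0.43 and *HNRNPA0* by 0.61 on 1 of its 2 probes. *HNRNPD*, also called AUF1, which binds AU-rich elements and marks messages for decay, rose on 2 of 3 probes, by 0.29 and 0.40. Of the 3 falling probes in this group, 1 was of *HNRNPA3*, described further on, and 2 were of *HNRNPDL*, a paralogue of *HNRNPD* known to repress its own message through splicing of its 3' end. Its probe A_24_P9090 ranged from 0.49 to 1.02 on control arrays (median 0.96) and from -0.30 to 0.14 on the labelled arrays, a change of -0.94 (SE 0.11, limma adjusted p = 8.45e-06). A_23_P213153 of the same gene went from 3.11 to 3.17 down to 2.34 to 2.62, a change of -0.69 (SE 0.06, limma adjusted p = 3.66e-07). Both probes of *HNRNPDL* separated the conditions completely. *HNRNPA1*, *HNRNPA3* and *HNRNPC* have many processed pseudogenes, and signal from such copies cannot be told apart from that of the gene here.

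*HNRNPF* and the *HNRNPH* genes code for proteins that bind G-runs and can favour or silence an exon by its position. Of the 7 probes, 6 rose, none fell and 1 did not pass, and the median of 0.55 remained above 0 with each scaling. *HNRNPF* lay between 1.93 and 2.04 on control arrays (median 1.94) and from 2.34 to 2.99 on the labelled arrays (median 2.47), a change of 0.63 (SE 0.11, limma adjusted p = 0.000302). The 2 labelled arrays of slide 1 were the highest, and the groups did not overlap. *HNRNPH1* rose on all 3 probes, by 0.82, 0.65 and 0.50. On its A_24_P320254 probe the control arrays spanned 4.48 to 4.77 (median 4.51) and the labelled arrays 4.98 to 5.42 (median 5.27), with SE 0.09 and a limma adjusted p of 3.49e-05. *HNRNPH2* rose by 0.53 (SE 0.17, limma adjusted p = 0.017), with 1 control array at 0.64 under the rest and some overlap between the groups.

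*HNRNPK*, *PCBP1* and *PCBP2* code for KH-domain proteins that bind C-rich stretches in nuclear and cytoplasmic RNA. Here 5 of 6 probes rose and none fell, with a median of 0.37 that kept its sign under all scalings. *PCBP1* A_24_P103025 was between 3.81 and 3.89 on control arrays and between 4.14 and 4.45 on the labelled arrays, a change of 0.41 (SE 0.06, limma adjusted p = 8.93e-05) with no overlap. *PCBP1* A_23_P68040 changed by 0.27, and the *PCBP2* probes by 0.34 and 0.44. The *PCBP2* groups overlapped on both probes.

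In the group of *HNRNPL*, *HNRNPLL* and the *PTBP* genes, which bind CA-repeats and pyrimidine tracts and mostly repress exons, 3 of 9 probes rose, 3 fell and 3 did not pass. Of all probes, 29.7% rose and 28.0% fell. The 3 rising probes were those of *HNRNPL*. A_24_P42122 spanned 0.35 to 0.88 on control arrays (median 0.57) and 1.23 to 1.75 on the labelled arrays (median 1.25), a change of 0.78 (SE 0.12, limma adjusted p = 0.000135), and the other two probes both changed by 0.58. *HNRNPLL*, the paralogue known for *CD45* exon skipping in T cells, fell. Its values were 0.91 to 1.16 on control arrays (median 0.97) and 0.27 to 0.55 on the labelled arrays (median 0.39), a change of -0.60 (SE 0.07, limma adjusted p = 6.24e-06). *HNRNPL* and *HNRNPLL* thus moved apart, with no overlap between the conditions on any of their 4 probes. *PTBP2*, the neuronal PTB, changed by -0.33 (SE 0.08, limma adjusted p = 0.00376), while *PTBP1* changed by 0.18 and missed the threshold (limma adjusted p = 0.0905). *PTBP2* missed it with 1 value per slide and passed when the slide was added as a block (adjusted p = 0.0196). The remaining fall was that of *PTBP3* A_24_P916614, at -0.22 (SE 0.07, limma adjusted p = 0.0134), with overlapping groups. Other *PTBP3* probes changed by 0.08 and 0.02, short of the threshold.

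*HNRNPC*, a core hnRNP that binds U-tracts and keeps *Alu* exons out of messages, had changes of 0.07, 0.22 and 0.04 on 3 probes, all short of the threshold. On *HNRNPC* A_23_P163006 the control arrays ran from 5.80 to 6.12 and the labelled arrays from 6.03 to 6.09, within the control range. *HNRNPM* changed by 0.23 (SE 0.07, limma adjusted p = 0.0114), with overlapping groups. *HNRNPR* and its paralogue *SYNCRIP*, which act in mRNA transport and stability, had 1 fall in 4 probes, *SYNCRIP* A_23_P214798 at -0.25, and a median of -0.12 that turned to 0.09 with spike-in scaling and 0.02 with normexp background correction. *HNRNPUL1* rose on 1 of 3 probes, by 0.38, and the probes of *HNRNPU* disagreed, as given further on.

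The muscleblind genes code for zinc-finger proteins. That of *MBNL1* is known to drive the switch to adult splicing patterns in muscle and to be sequestered in myotonic dystrophy. *MBNL3* had the largest rise of the members. Its probe A_23_P385851 was dim, between -4.23 and -4.00 on control arrays (median -4.11, well above background on 5 of 6) and between -2.98 and -2.56 on the labelled arrays (median -2.84, above background on all 6). The change was 1.32 (SE 0.08, limma adjusted p = 3.71e-08), a 2.50-fold rise with no overlap. Its size depends on how background is removed: with normexp and an offset of 50 it was 0.15 (limma adjusted p = 0.87), so the fold is uncertain. *MBNL2* changed by 0.17 on its tested probe, with overlapping groups. *MBNL1* had a change of 0.46 on a dim probe, A_23_P212073, where normexp gave -0.20, and of -0.00057 on A_23_P357811.

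**Figure D3:**
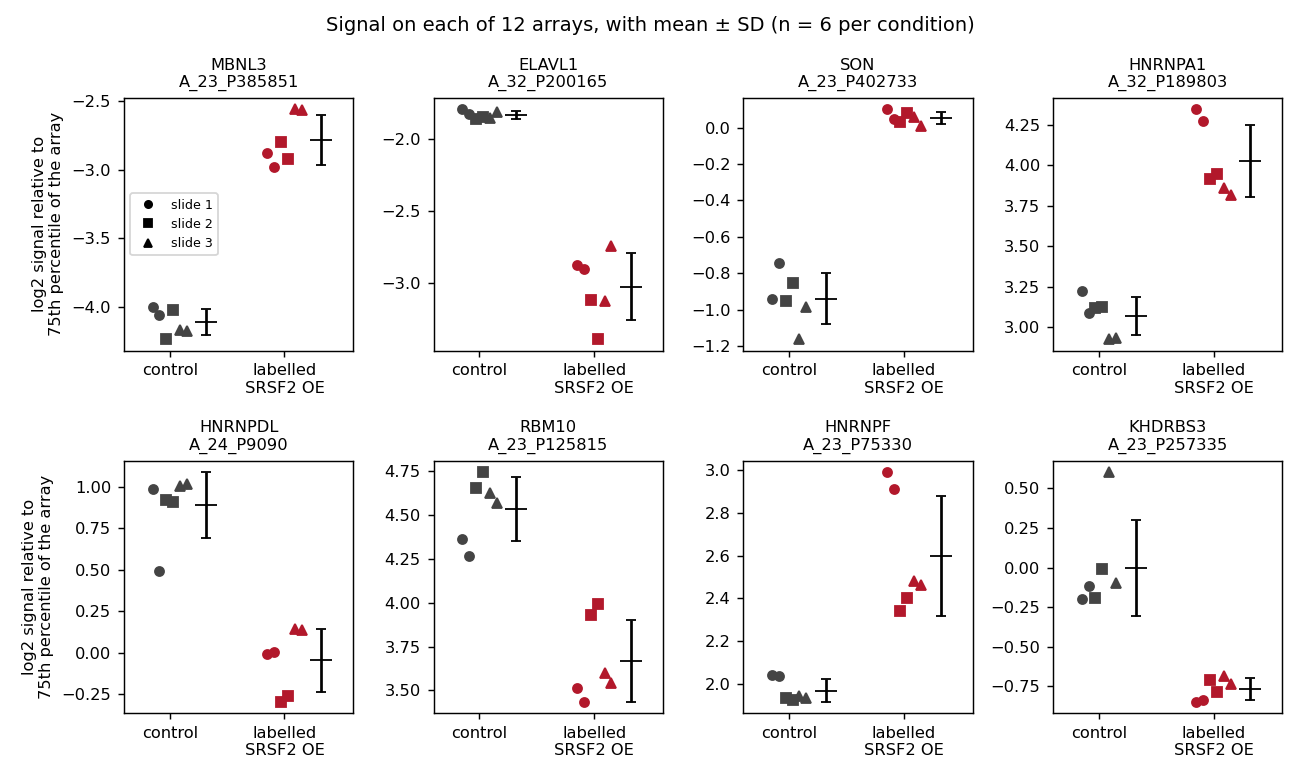
Signal on each of the 12 arrays for 8 probes (vertical axes, log2 signal less the array's 75th percentile), with control in grey, labelled SRSF2 over-expression in red, 1 symbol per slide, and bars for the mean ± SD of 6 arrays. On every panel the conditions do not overlap; *KHDRBS3* shows 1 control array at 0.60 above the others, and *HNRNPF* and *HNRNPA1* show the labelled arrays of slide 1 above those of slides 2 and 3.

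*RBFOX2*, *CELF1* and *QKI* are regulators with well-defined motifs that act in epithelial and mesenchymal or developmental splicing programmes. *CELF1*, known to oppose the muscleblind proteins, rose by 0.34 (SE 0.09, limma adjusted p = 0.00501). *RBFOX2* had a change of 0.07 that missed the threshold (limma adjusted p = 0.712). *QKI* A_24_P384954 was between -3.82 and -3.06 on control arrays and between -4.71 and -3.71 on the labelled arrays, a change of -0.72 (SE 0.17). The probe was above background on 5 control and 3 labelled arrays, so it entered the fit through the condition where it is higher, and no p is given for it, although it is 1 of the 19 falls counted above, which were 18 with detection on 9 of 12 arrays required. The *QKI* groups overlapped, and the difference was -0.25, -0.83 and -1.08 on the 3 slides. The median of the group, -0.18, includes *QKI* A_24_P384954 and turned to 0.03 with spike-in scaling.

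The *KHDRBS* genes, which code for Sam68 and its relative SLM2, STAR-family proteins that link signalling to splicing, fell on all 3 probes, with a median of -0.48 that stayed below 0 in each scaling. *KHDRBS3* spanned -0.20 to 0.60 on control arrays (median -0.11) and -0.85 to -0.68 on the labelled arrays (median -0.76), a change of -0.76 (SE 0.12, limma adjusted p = 0.000128). *KHDRBS1* A_23_P149012 went from 1.76 to 2.02 (median 1.88) to 1.32 to 1.53 (median 1.43), a change of -0.46 (SE 0.06, limma adjusted p = 1.64e-05), and A_23_P200386 changed by -0.48. None of the 3 probes overlapped between conditions. With spike-in scaling, where the median of all probes shifted to 0.22, the 3 probes were no longer called and their median was -0.28.

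*TIA1* and *TIAL1* code for U-rich binding proteins that promote 5' splice site use, and *ELAVL1* for HuR, a stabiliser of AU-rich messages. *TIAL1* spanned 0.67 to 0.77 on control arrays (median 0.72) and 1.20 to 1.34 on the labelled arrays (median 1.22), a change of 0.52 (SE 0.04, limma adjusted p = 3.42e-07) with no overlap. *TIA1* A_23_P90845 changed by -0.38 (SE 0.15, limma adjusted p = 0.039), but its difference was 0.10 on slide 1 and -0.71 and -0.54 on slides 2 and 3. This *TIA1* call was the only one lost with the replicate number as a block. *ELAVL1* A_32_P200165 had the largest fall of the members. It was nearly constant on control arrays, from -1.86 to -1.79 (median -1.84), and spanned -3.39 to -2.74 on the labelled arrays (median -3.01), a change of -1.20 (SE 0.09, limma adjusted p = 2.50e-07) or 2.29-fold. With normexp the change was -0.83 (limma adjusted p = 0.124). The other two *ELAVL1* probes did not pass, at -0.05 and 0.29.

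*EWSR1*, *TARDBP*, *SFPQ* and *NONO* code for multifunctional RNA-binding proteins of transcription and splicing, the last pair being partners in paraspeckles. Of 10 probes, 6 rose, 1 fell and 3 did not pass, and the median of 0.37 kept its sign under all scalings. *SFPQ* spanned -1.06 to -0.90 on control arrays (median -0.99) and -0.46 to -0.08 on the labelled arrays (median -0.33), a change of 0.70 (SE 0.07, limma adjusted p = 4.30e-06) with no overlap. *NONO* changed by 0.25 on A_24_P413437 and by -0.16, short of the threshold, on A_24_P151727. *EWSR1* rose on 2 of 4 probes, by 0.50 and 0.56, and the other two had changes of 0.20 each; all 4 probes had overlapping groups.

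Of the 6 RBM probes 2 rose and 3 fell, beside 29.7% and 28.0% of all probes. *RBM10*, whose product represses exon inclusion and is often mutated in lung adenocarcinoma, spanned 4.27 to 4.74 on control arrays (median 4.60) and 3.43 to 3.99 on the labelled arrays (median 3.57), a change of -0.87 (SE 0.11, limma adjusted p = 2.90e-05). The groups did not overlap, although both conditions spread by slide. *RBM5*, a paralogue of *RBM10* known as a regulator of apoptotic genes, fell on both probes, by 0.43 and 0.28 on the log2 scale. *RBM39*, which binds the U2AF large subunit, rose from 2.36 to 2.60 (median 2.51) to 2.96 to 3.30 (median 3.06), a change of 0.60 (SE 0.07, limma adjusted p = 6.62e-06). *RBM25* rose by 0.22 on 1 of 2 probes. Since 2 probes of the group rose and 3 fell, its median of -0.05 was near 0, and it was 0.15 with spike-in scaling and 0.02 with normexp.

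*SON*, *SRRM1* and *SRRM2* code for large serine/arginine-rich proteins of nuclear speckles that hold the splicing machinery together. Of 9 probes, 6 rose and none fell, with a median of 0.32, above 0 under each scaling. *SON*, needed for introns with weak splice sites, rose on all 4 probes. A_23_P402733 was between -1.16 and -0.75 on control arrays (median -0.95) and from 0.01 to 0.10 on the labelled arrays (median 0.06), a change of 1.00 (SE 0.06, limma adjusted p = 4.32e-08). *SON* A_32_P36217 went from -0.68 to -0.09 up to 0.21 to 0.71, a change of 0.82 (SE 0.11, limma adjusted p = 4.73e-05). Neither overlapped. The other *SON* probes changed by 0.32 and 0.48, and the second of these, A_24_P67142, was dim and read -0.15 with normexp. *SRRM1* rose on 1 of 3 probes, by 0.42, and *SRRM2* on 1 of 2, by 0.15.

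Array probes of a gene can lie in different transcripts, so probes of the same gene were compared with each other. The test of limma for unequal change among the probes of a gene ran over 3601 genes and called 42.1% of them at the same adjusted threshold. Of 29 member genes tested, 12 passed (41.4%), a share close to that of all genes tested. Probes with a value missing on any array were left out of this test, which removed 7 member probes of 5 genes: 3 of the 8 of *HNRNPA3* and 1 each of *ELAVL1*, *HNRNPA1*, *HNRNPC* and *HNRNPD*. The 12 genes that passed were *TARDBP*, *HNRNPH3*, *ELAVL1*, *HNRNPK*, *HNRNPU*, *SON*, *PTBP3*, *NONO*, *MBNL1*, *TIA1*, *HNRNPA3* and *HNRNPUL1*. Probes called in opposite directions were found in 3 of the 29 (10.3%), against 9.78% of the genes tested. With 1 value per slide 6 of the 12 passed, namely *ELAVL1*, *HNRNPA3*, *HNRNPH3*, *HNRNPK*, *HNRNPU* and *TARDBP*, and with the slide as a block on those values 11, all but *TIA1* (adjusted p = 0.0776). Averaging filled the missing values, so the 7 probes left out above entered both of these tests, which ran over 3727 genes. With normexp 1 passed, *TARDBP*. Outlier spots decided *ELAVL1*: with these kept, 1 more of its probes entered and it did not pass (adjusted p = 0.691).

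*TARDBP* codes for TDP-43, which controls its own level through splicing in its 3' end. The probe A_24_P276703 spanned 2.43 to 2.55 on control arrays (median 2.52) and 3.18 to 3.33 on the labelled arrays (median 3.27), a rise of 0.76 (SE 0.04, limma adjusted p = 2.11e-08). A_32_P234935 rose by 0.52 (SE 0.09, limma adjusted p = 0.000419). A_23_P403955 of *TARDBP* was between -0.52 and -0.37 on control arrays (median -0.41) and from -0.77 to -0.61 on the labelled arrays (median -0.75), a change of -0.30 (SE 0.05, limma adjusted p = 0.000139). Each of the 3 *TARDBP* probes separated the conditions, and each had the same sign on all slides. The difference between the first and the last of these probes on the same array, which a constant shift of an array cannot change, was 2.93 ± 0.05 (SD, n = 6) on control arrays and 3.99 ± 0.11 on the labelled arrays. That difference grew by 1.07, and by 1.14 with normexp, without overlap in either. Here and in the genes that follow, the probes set against each other are the most rising and the most falling of the gene among those with a value on every array, so these differences are a description, with no test.

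**Figure D4:**
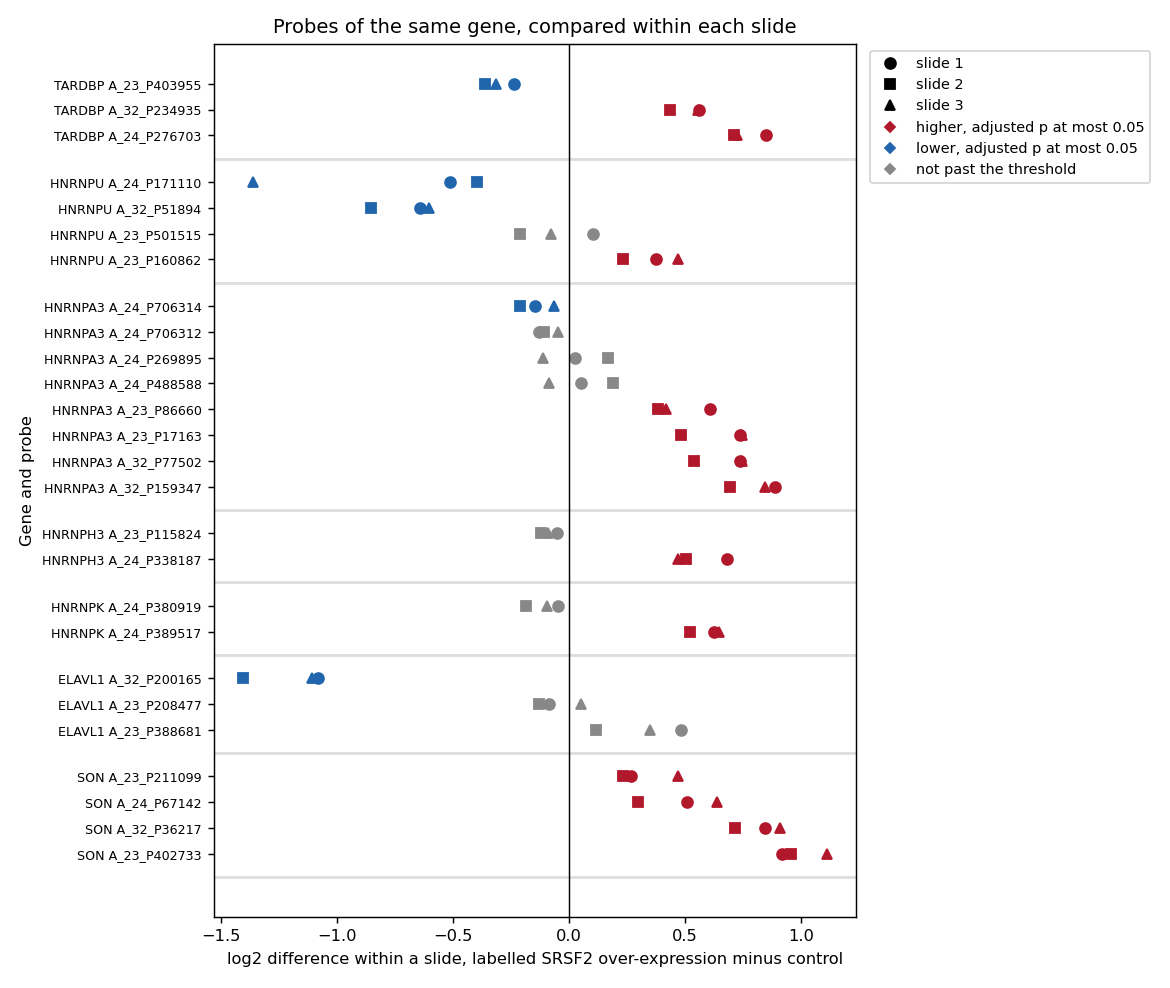
Difference between the conditions within each slide (horizontal axis, log2, labelled SRSF2 over-expression minus control, 1 symbol per slide) for every tested probe of 7 genes whose probes changed unequally. The *TARDBP* probes lie on both sides of 0 on all 3 slides, the *SON* probes all lie above 0 but at different distances, and the *HNRNPA3* probes fall into a group near 0 and a group between 0.38 and 0.89.

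*HNRNPU*, a nuclear matrix protein also called SAF-A, had 4 probes in disagreement. A_32_P51894 spanned -0.60 to -0.42 on control arrays (median -0.53) and -1.41 to -0.94 on the labelled arrays (median -1.23), a change of -0.70 (SE 0.08, limma adjusted p = 6.33e-06). A_23_P160862 of *HNRNPU* rose by 0.36 (SE 0.09, limma adjusted p = 0.00382), from a control median of 3.40 to 3.80, with overlap. The third *HNRNPU* probe, A_24_P171110, changed by -0.76 (SE 0.25, limma adjusted p = 0.0211), but by -1.36 on slide 3 against -0.51 and -0.40 on the other slides, and it missed the threshold without slide 3 (adjusted p = 0.202). A_23_P501515 changed by -0.06, and this value was 0.15 with spike-in scaling and 0.05 with normexp. The rise of A_23_P160862 and the fall of A_24_P171110 were not called with 1 value per slide, while the fall of A_32_P51894 was, and all 3 were called with the slide as a block on those values. The difference between A_23_P160862 and A_24_P171110 on the same array went from 4.86 ± 0.71 (SD, n = 6) to 5.97 ± 0.51. It grew by 1.12, and by 0.89, 0.63 and 1.83 on slides 1, 2 and 3. With normexp it grew by 1.07, and the groups overlapped in both.

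*HNRNPA3* had 8 probes in the fit of single probes, of which 4 rose, 1 fell and 3 did not pass. Of these 8, 5 entered the test within genes, without A_32_P159347, A_32_P77502 and A_23_P17163. The rising probes A_32_P159347, A_32_P77502, A_23_P17163 and A_23_P86660 changed by 0.78, 0.67, 0.64 and 0.47, and none overlapped between conditions. On A_32_P159347 the control arrays spanned 4.74 to 4.96 (median 4.85) and the labelled arrays 5.55 to 5.80 (median 5.59), with SE 0.06 and a limma adjusted p of 6.31e-07. The falling probe of *HNRNPA3*, A_24_P706314, went from 2.33 to 2.48 to 2.21 to 2.32, a change of -0.14 (SE 0.04, limma adjusted p = 0.0113) that became 0.07 with spike-in scaling and missed the threshold with 1 value per slide (adjusted p = 0.219), also with the slide as a block (adjusted p = 0.153). The other three, A_24_P706312, A_24_P269895 and A_24_P488588, changed by -0.10, 0.03 and 0.05. The difference between A_23_P86660 and A_24_P706314 on the same array grew by 0.61, from -1.56 ± 0.08 (SD, n = 6) to -0.95 ± 0.08, and by 0.45 with normexp, where the groups overlapped.

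The probes of *HNRNPH3* and *HNRNPK*, named here after their values were seen, also moved apart. *HNRNPH3* A_24_P338187 spanned 2.47 to 2.64 on control arrays and 2.97 to 3.27 on the labelled arrays, a change of 0.55 (SE 0.06, limma adjusted p = 3.22e-06), while A_23_P115824 changed by -0.09 (SE 0.04, limma adjusted p = 0.0552). The difference between the *HNRNPH3* probes on an array grew by 0.64, from 0.83 ± 0.06 (SD, n = 6) to 1.47 ± 0.09, with no overlap. *HNRNPK* A_24_P389517 rose by 0.60 (SE 0.09, limma adjusted p = 6.71e-05), while A_24_P380919 changed by -0.11 (SE 0.05, limma adjusted p = 0.0935). The difference between the *HNRNPK* probes grew by 0.71, from 0.21 ± 0.11 (SD, n = 6) to 0.92 ± 0.08, on all 3 slides by between 0.67 and 0.74. In both genes the within-array difference also separated the conditions with normexp, at 0.70 and 0.81.

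*ELAVL1* A_23_P208477, with values of 2.20 to 2.65 on control arrays and 2.12 to 2.39 on the labelled arrays, stood against the falling A_32_P200165, and their difference grew by 1.14, from 4.15 ± 0.16 (SD, n = 6) to 5.29 ± 0.15. With normexp the *ELAVL1* difference grew by 0.92 and the groups overlapped. Between *SON* A_23_P402733 and A_23_P211099 the difference grew by 0.67, and by 0.25 with normexp, where the groups overlapped. In *NONO* it grew by 0.40, and by 0.48 with normexp, with no overlap in either. The differences of *TIA1*, *PTBP3* and *HNRNPUL1* grew by 0.61, 0.30 and 0.38, without overlap, and by 0.31, 0.09 and 0.04 with normexp, where the groups overlapped. That of *MBNL1* grew by 0.46 with overlapping groups and turned to -0.28 with normexp. Where the probes of these genes lie in their transcripts is not given in the sources used here, and which transcripts were read was not tested.

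A list of 71 other splicing regulators, with 97 tested probes, was set beside the members. Of these, 60 were called (61.9%), 37 up and 23 down, with a median change of 0.10, and 9 passed 2-fold, 5 up and 4 down. Of all probes 57.7% were called, 29.7% up and 28.0% down. The largest rises were *RBM15* (1.74), *RBM4* (1.24) and *RBM14* (1.05), and the largest falls those of the 2 probes of *RBM17* (-1.39 and -1.32) and of *SUGP2* (-1.12). Changes past 2-fold thus made up 9.28% of these probes and 2 of 100 of the members' probes, beside 7.00% of all probes. No test was made of the difference between the lists.

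The count of called members depended on the processing, and so did the sign of some probes. Of the 100 tested member probes, called or not, 13 turned sign with normexp and 13 with spike-in scaling. With normexp these included the called *MBNL1* A_23_P212073 and *SON* A_24_P67142. With normexp 22 probes were called, 18 up and 4 down (11.6% of all probes called), and with spike-in scaling 44, 41 up and 3 down (26.8% of all). No called member probe was called in the other direction under any setting tried. The excess of rises over falls appeared in each setting, from 22 against 10 with spike-in scaling of slides 2 and 3 to 41 against 3 with spike-in scaling of all slides. Of all probes, 13.1% rose and 12.9% fell with the former, and 20.7% rose and 6.15% fell with the latter. Spike-in scaling of all slides also moved the median of all probes to 0.22, and relative to that median the members' median was 0.21.

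**Figure D5:**
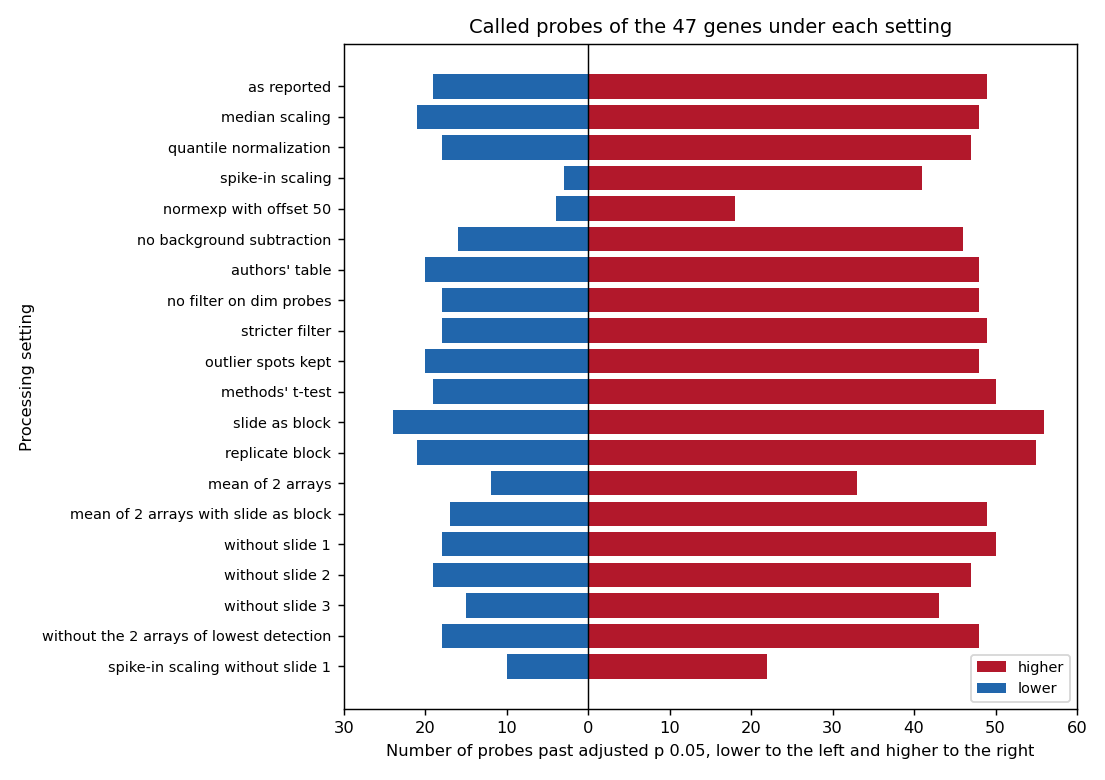
Number of the members' probes past an adjusted p of 0.05 under each processing setting (horizontal axis, lower to the left and higher to the right, settings on the vertical axis). Rises outnumber falls in all 20 settings, and the total is 68 as reported, 22 with normexp and 80 with slide as a block. With spike-in scaling of all slides, rises also outnumber falls among all probes, 20.7% against 6.15%.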

How the data were processed

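The authors deposited, per array, the Feature Extraction output (version 10.7.3.1 per the labels), in which the processed intensity of a spot is its signal after background subtraction. They also deposited a table of log2 values, which matched the processed signal on the log2 scale after subtraction of the 75th percentile and centring per probe (correlation 0.998). GeneSpring GX, an exclusion of probes missing in over 25% of samples and a t-test adjusted by Benjamini-Hochberg are named in the methods.

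Processed intensities were put on the log2 scale, spots of a probe were averaged without outlier-flagged spots, and the 75th percentile over gene probes subtracted on each array. A probe stayed in the fit if it was missing on no more than 25% of arrays and if 5 or 6 arrays of a condition read it well above background. Of the 41000 gene probes, 25868 carried a RefSeq accession, of which 23958 were named through the GRCh38.p14 RefSeq table. The files use build hg18, so no coordinates are given. Between 54.2% and 68.0% of gene spots were well above background, and no spot was saturated; the number of arrays limits the precision. The contrast was fitted by limma 3.58.1 in R 4.3.3 (lmFit, eBayes), with no covariates, with Benjamini-Hochberg adjustment over all 24327 probes kept. Probes of a gene with a value on every array were compared with diffSplice of limma. Both fits were tested on simulated data in which every array was drawn independently. That test does not cover the correlation of arrays within a slide, given below. Figures were drawn with matplotlib 3.10.9.

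For the 6 pairs of arrays that share a replicate number, deviations from the condition means correlated at 0.28 to 0.64. Within a slide, unlike numbers gave 0.33 to 0.65, and between slides the range was -0.48 to -0.05, so the numbers pair arrays through the slide.

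The members, families and lists were chosen with earlier results of these data known. Named are the members' probes past 2-fold, then those past the threshold without overlap by size of change, up to 24 probes in all, and every gene with called probes in both directions. Other members named were chosen after their values were seen. Of the other splicing regulators, the 3 largest rises and falls are named.

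Alternatives were median, quantile and spike-in scaling (7 probes), the authors' table, normexp (offset 50), raw signal without subtraction, filters of 9 of 12 arrays or none, inclusion of outlier spots, a block for the slide or for the replicate number, the methods' t-test, 1 mean per slide and condition (with and without that block), each slide left out and a 1.5-fold threshold. Leaving out the 2 arrays of lowest detection, and spike-in scaling without slide 1, were chosen after seeing the data. The median spot intensity stood in for the mean in the background settings.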

Additional observations from a re-analysis of the deposited data

Results flagged for a closer look

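In 82 groups of 6 arrays, 1 condition of each named probe, 3 groups held an array far from the other five, where chance gives about 1 in 20. *KHDRBS3* A_23_P257335 read 0.60 on control array 5 and -0.20 to -0.01 on the other control arrays. *TARDBP* A_23_P403955 read -0.61 on SRSF2 over-expression array 6 and -0.77 to -0.73 on the other labelled arrays. *HNRNPDL* A_24_P9090 read 0.49 on control array 2 and 0.91 to 1.02 on the other control arrays. The 2 conditions did not overlap on any of these probes. For *KHDRBS3* and *HNRNPDL* this follows from the rule by which they were named.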

How the results depend on the processing

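The 68 called member probes became 44 with spike-in scaling, 32 with spike-in scaling without slide 1, 22 with normexp and 45 with the mean of 2 arrays, and ranged from 58 to 68 with a slide left out (of all probes 26.8%, 26.0%, 11.6%, 39.0% and 48.3% to 58.2%). With the replicate block, which pairs arrays through the slide, 76 were called, 9 gained and 1 lost (*TIA1* A_23_P90845), with slide as a block 80, and with slide as a block on the means of 2 arrays 66, 3 gained and 5 lost, beside 65.8%, 70.1% and 54.8% of all probes. The 2 probes past 2-fold became 28 at 1.5-fold, 0 without background subtraction, 0 with normexp, 6 with spike-in scaling, 4 with spike-in scaling without slide 1, and 2 to 4 with a slide left out. In the main fit 7.00% of all probes passed 2-fold. The shares of all probes for the other counts are not given here, so these counts describe the members alone. The median change of 0.23 was 0.43 with spike-in scaling and 0.27 with spike-in scaling without slide 1. The 12 genes with unequal probes became 22 with slide as a block, 18 with the replicate block, 6 with the mean of 2 arrays, 3 with spike-in scaling, 4 with spike-in scaling without slide 1 and 1 with normexp. Of all genes tested, 56.7%, 52.7%, 22.8%, 12.1%, 14.2% and 3.11% passed in these settings, against 42.1%. With slide as a block on the means of 2 arrays, 11 of the member genes passed, beside 39.6% of all. Tests on these means ran over 3727 genes, since averaging filled missing values and more probes entered. The 60 called probes of other regulators became 34, 33 and 21 with spike-in scaling, spike-in scaling without slide 1 and normexp, beside 26.8%, 26.0% and 11.6% of all probes. The *SRSF2* change stayed between -1.48 and -1.44 with a slide left out. Among the probes named by the rule, signs turned in uncalled probes of *HNRNPU* and *HNRNPA3* and, with spike-in scaling, in the called *HNRNPA3* A_24_P706314 (0.069). Spike-in scaling also gave 0.15 for *HNRNPU* A_23_P501515 and 0.11 for *HNRNPA3* A_24_P706312, and normexp gave 0.055 for *HNRNPU* A_23_P501515 and -0.051 for *HNRNPA3* A_24_P269895. For the latter, no background subtraction gave -0.0073 and leaving out the 2 arrays of lowest detection -0.0081. With a slide left out, *HNRNPU* A_23_P501515 ranged from -0.144 to 0.0127, *HNRNPA3* A_24_P269895 from -0.0425 to 0.0975 and A_24_P488588 from -0.0165 to 0.121, each turning without slide 2. The cause was not tested. Dim probes such as *MBNL3* are limited by their signal over background, and the 3 labelings per condition limit all p-values: with 3 values against 3, an exact test cannot go below 0.1.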

Other observations

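Markers of the cells were read as a check of the culture. The keratin gene *KRT7* fell from 3.47 ± 0.06 (SD, n = 6) to 2.15 ± 0.10, a change of -1.32 (limma adjusted p = 1.66e-09), and *KRT19* changed by -0.50, while *KRT18* on 3 probes and *CDH1* did not pass the threshold and *EPCAM* changed by 0.21. *KRT8* rose by 0.18 on A_23_P14072 and missed the threshold on its other probe (0.50, limma adjusted p = 0.0547), so that 2 of the 9 epithelial probes rose, 2 fell and 5 did not pass. *NKX2-1*, a transcription factor of lung epithelium, rose on both probes, by 0.42 and 0.34, and *NAPSA*, an aspartic protease of lung epithelium, rose by 0.63 on 1 of 2 probes. The surfactant gene *SFTPC* and the club cell gene *SCGB1A1* were above background on all 12 arrays, with changes of -0.05 and -0.01 that did not pass, and *SFTPB* was above background on 2 control arrays and 0 labelled arrays. Of the 6 lung epithelial probes tested, 3 rose, 0 fell and 3 did not pass. Their part in the changes of the splicing regulators was not tested.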
